A study of Mus musculus with 4 samples.

Results

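Open chromatin at 10 genes of the Hippo pathway and of its transcriptional arm, YAP and TEAD, was measured in hepatocyte nuclei of regenerating mouse liver. The genes were Yap1, Wwtr1, Tead1, Tead2, Tead4, Lats1, Lats2, Nf2, Amotl2 and Ankrd1, chosen by name from the 21911 protein-coding genes of the annotation. The measure was the number of transposase cuts in peaks over each gene body and the 2 kb upstream of it (mm10, GENCODE vM21), summed over all nuclei of a library and given relative to all cuts in its peaks, as cuts per 1000000 of them (CPM). A nucleus was a barcode with at least 1000 counts. Values are set beside the covered length, the full length of the peaks that touch this window, and for promoter peaks alone, those that themselves reach within 1000 bp of the start of a protein-coding transcript. Where a long peak of one library is split in another, pieces away from the start no longer count as promoter, and pieces away from the gene no longer count at all.

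Single-nucleus ATAC-Seq (scATAC-Seq) was performed on hepatocytes that had been released from the liver by collagenase perfusion. The study used male C57BL/6J mice, given in the labels as 10 to 12 weeks old and kept on normal diet. The hepatocytes were taken from undamaged liver (PHx 0 h) or 48, 72 and 96 h after surgery. Partial hepatectomy (PHx) removes part of the organ, after which the hepatocytes that remain divide. There was 1 library at each time point, so differences between time points have no replicate error, no test was possible, and time cannot be told apart from library, animal or depth. The library of 48 h came from a single mouse, and the number of mice behind those of 72 and 96 h is not stated in the labels or methods. The labels name no altered gene, drug or other treatment in any group.

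The Hippo pathway is a kinase cascade that holds organ size in check. Stk3 and Stk4, with Sav1, activate Lats1 and Lats2, and these phosphorylate the coactivators YAP (encoded by Yap1) and TAZ (encoded by Wwtr1), which then stay in the cytoplasm. When the cascade is quiet, YAP and TAZ enter the nucleus and bind TEAD proteins, which recognise the letters CATTCC on either strand and switch on genes such as Ccn1, Ccn2, Ankrd1 and Amotl2. In the liver, Nf2 and the cascade restrain YAP, and forced YAP activity enlarges the organ and makes hepatocytes take on progenitor and biliary features. Lats2 and Amotl2 are inhibitors that are also TEAD targets and so close a feedback loop.

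Depth fell with time. Nuclei with at least 1000 counts numbered 3977, 3892, 4256 and 3224 at 0, 48, 72 and 96 h, with median counts of 26005, 11629, 4841 and 3682 per nucleus. Peaks had been called in each library on its own and covered 154, 179, 141 and 60.9 Mb, so a gene could gain or lose counts because its peaks were drawn longer or shorter. The pairs of libraries shared 27 to 60 barcode sequences, at most 1.41% of a library. All 10 hepatocyte markers had peaks in all 4 libraries. In a clustering that left out every region over the pathway genes, hepatocyte-like nuclei made up 92.6%, 94.5%, 93.3% and 97.5% of the nuclei. Of all counts they held 134958124 of 136582768, 61248361 of 62000846, 24163460 of 24724883 and 14819451 of 14935507. Values in these nuclei alone can thus differ little from those of all nuclei.

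Sequences are shown for 2 sets of windows. The first set holds the 250 bases before a start site, on the strand of the gene, for both coactivators and for Tead4, whose start region gained counts after PHx. Capitals mark CATTCC or GGAATG, the TEAD letters read on either strand. Those of Yap1 and Wwtr1 are from RefSeq (GRCm38.p6), which held entries for 8 of the 10 members, and that of Tead4 lies before its GENCODE start on the same build.
Yap1, chr9:8004597-8004846: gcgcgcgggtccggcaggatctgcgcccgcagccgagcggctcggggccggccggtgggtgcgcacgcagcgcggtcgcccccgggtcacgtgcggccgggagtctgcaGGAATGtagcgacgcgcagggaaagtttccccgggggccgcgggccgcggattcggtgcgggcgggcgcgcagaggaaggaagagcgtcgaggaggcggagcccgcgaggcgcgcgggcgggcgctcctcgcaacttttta
Wwtr1, chr3:57575911-57576160: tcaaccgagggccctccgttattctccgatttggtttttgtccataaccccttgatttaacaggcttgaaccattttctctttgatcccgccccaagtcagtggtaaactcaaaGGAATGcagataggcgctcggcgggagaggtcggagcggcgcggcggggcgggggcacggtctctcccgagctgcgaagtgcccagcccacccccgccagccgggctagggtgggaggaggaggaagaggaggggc
Tead4, chr6:128300824-128301073: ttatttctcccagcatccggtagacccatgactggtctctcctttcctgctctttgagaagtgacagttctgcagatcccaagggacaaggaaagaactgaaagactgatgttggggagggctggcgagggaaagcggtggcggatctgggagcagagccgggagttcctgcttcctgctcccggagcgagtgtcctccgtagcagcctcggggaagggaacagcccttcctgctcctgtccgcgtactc
For the target genes Ankrd1 and Amotl2 only the 30 bases around each match are shown, since their windows lie in exons of some GENCODE transcripts.
Ankrd1, first letter at position -210 from the RefSeq start, chr19:36120037-36120066: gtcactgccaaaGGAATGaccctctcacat
Ankrd1, first letter at position -123, chr19:36119950-36119979: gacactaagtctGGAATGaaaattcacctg
Amotl2, first letter at position -65, chr9:102717727-102717756: ctgaaactctcaCATTCCtggcatagcagc
CATTCC or GGAATG occurred in windows of 4 of the 8 members with RefSeq entries (Yap1, Wwtr1, Amotl2 and Ankrd1), which is 5 of their 11 windows, as 2 overlapping windows of Wwtr1 hold the same match, and in 12.6% of the 32851 windows of this length in the RefSeq table. Before the GENCODE start of Tead1, the other member without a RefSeq entry, the letters occurred at position -196. The windows of Tead2, Lats1, Lats2 and Nf2 did not hold these letters. A match is a description of the letters and not a bound site.

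The second set holds the central 300 bases of the 2 intronic regions over members that gained more than 2-fold while their peaks kept nearly the same length (plus strand, GRCm38.p6). Capitals would mark the TEAD letters or the AP-1 letters TGANTCA, and neither window held any.
Tead1 intron, chr7:112884005-112884304: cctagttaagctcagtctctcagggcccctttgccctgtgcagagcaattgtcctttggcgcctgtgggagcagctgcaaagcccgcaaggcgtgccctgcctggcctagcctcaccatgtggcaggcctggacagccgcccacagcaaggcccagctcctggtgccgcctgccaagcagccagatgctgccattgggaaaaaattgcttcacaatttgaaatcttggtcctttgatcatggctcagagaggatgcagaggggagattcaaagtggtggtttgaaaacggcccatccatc
Lats2 intron, chr14:57723638-57723937: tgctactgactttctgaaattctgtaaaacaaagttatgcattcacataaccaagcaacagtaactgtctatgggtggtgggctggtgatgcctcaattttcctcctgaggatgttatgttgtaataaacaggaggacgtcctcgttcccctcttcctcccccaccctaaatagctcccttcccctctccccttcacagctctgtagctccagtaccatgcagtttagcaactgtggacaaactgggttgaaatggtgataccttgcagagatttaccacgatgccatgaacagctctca
Of 114 regions of at least 300 bases over the members, 16 (14.0%) had CATTCC or GGAATG in their central 300 bases, beside 15.8% of 136171 such regions in the genome. The AP-1 letters were in 16 of the 114 (14.0%), beside 9.83% of all.

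Measured over whole genes, no member was past 2-fold from PHx 0 h at 48 h, 1 was higher at 72 h (Tead4) and none was at 96 h, out of 9 members with peaks. Past 2-fold were 9.48%, 18.9% and 15.8% of all protein-coding genes at 48, 72 and 96 h, so the count among 9 genes lies near this background. The median log2 ratio of the 9 members to 0 h was 0.13, 0.08 and 0.10, and that of all genes -0.02, 0.01 and 0.10. All 9 passed the filter on low values (a mean of 2 CPM over the libraries), and Ankrd1 did not.

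**Figure D1:**
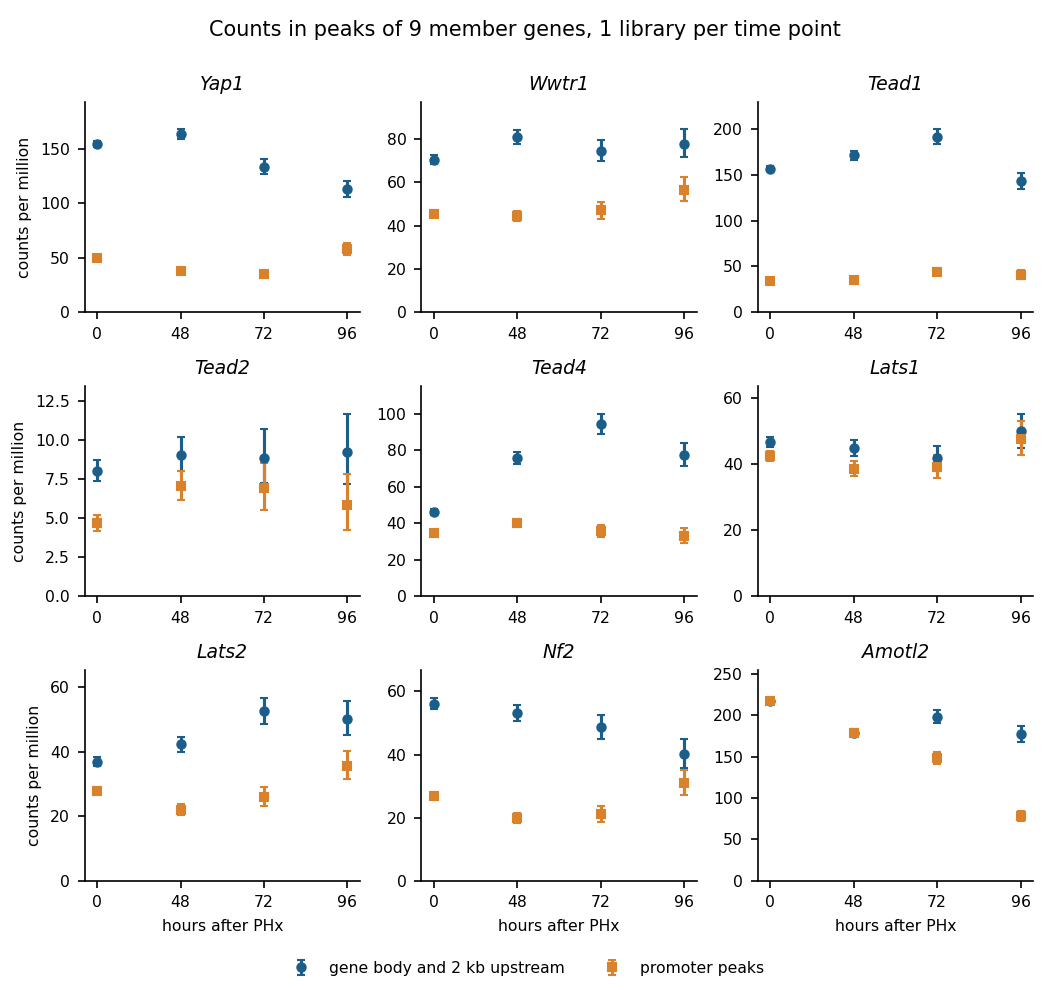
CPM over the gene and 2 kb upstream (blue circles) and in promoter peaks alone (orange squares), by hours after PHx, for the 9 members with peaks. Each point is 1 library, and bars are exact 95% Poisson intervals that cover counting error only. Tead4 is at 46.3 CPM at 0 h and 94.4 CPM at 72 h, and its promoter peaks lie between 33.1 and 40.0 CPM, from which peaks at the internal start drop out in part at 72 h and wholly at 96 h.

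Yap1 (chr9:7931999-8004596, minus strand), the main coactivator of the pathway, had 155, 163, 134 and 113 CPM at 0, 48, 72 and 96 h. Its level was highest at 48 h and lowest at 96 h, and each step in that order was larger than counting error. In hepatocyte-like nuclei without a cluster led by Cdx2, an alternative chosen after seeing the data, the log2 ratio at 72 h was -0.03 in place of -0.21 and that at 48 h 0.17 in place of 0.08. The ratio at 48 h turned to -0.03 with counts binarised and -0.04 per kb of peak, and per kb the level was highest at 96 h (4.16, 4.04, 5.36 and 15.4 CPM). The peaks over the gene covered 37192, 40404, 24963 and 7359 bp, so the fall at 96 h, by 0.45 on the log2 scale (95% interval of the ratio -0.55 to -0.35), came with peaks that covered less of the gene. In promoter peaks the order was another one. The promoter held 49.5, 37.8, 35.6 and 57.7 CPM, lower than at 0 h by 0.39 and 0.48 (ratios of -0.39 and -0.48, log2) at 48 and 72 h and higher by 0.22 at 96 h.

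Inside Yap1, 30 regions of merged peaks were found, 10 of them with a peak in all 4 libraries. The largest intronic region (chr9:7975420-7981404) had 17.0, 17.4, 12.6 and 7.43 CPM, over peaks of 5258, 5347, 2319 and 850 bp. The intronic region at chr9:7989125-7991777 had 15.7, 14.8, 13.2 and 16.9 CPM, over 1 peak of 2617 bp at 0 h and 2 peaks of 1051 bp in sum at 96 h. It was lower than at 0 h by a log2 ratio of -0.25 (-0.50 to -0.01) at 72 h, and at 48 and 96 h the interval included 0. The genes whose pattern over time was most like that of Yap1, in the log2 ratios of both CPM and covered length (6 values), were Zeb1, B3gnt2 and Gatad2a, with largest differences of 0.11, 0.13 and 0.13.

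Wwtr1 (chr3:57455649-57575910, minus strand), which encodes the second coactivator TAZ, stayed within a narrow range. It had 70.4, 80.8, 74.5 and 77.8 CPM over 9905, 13392, 8581 and 3610 bp, and of neighbours in the order of levels none differed beyond counting error. The highest and lowest levels did, with a log2 ratio of 48 h to 0 h of 0.20 (0.13 to 0.27). At 48 h the direction turned per kb of peak (-0.24) and in the promoter peak (-0.04, with an interval that included 0). Its promoter peak held 45.4, 44.3, 47.0 and 56.6 CPM, the last a log2 ratio of 0.32 to 0 h (0.17 to 0.46). An intronic region 105 kb downstream of the start (chr3:57470029-57471354) went from 6.63 to 7.53, 9.22 and 11.7 CPM, with the peak at 1143, 1180, 1222 and 535 bp. At 72 h its log2 ratio was 0.48 (0.17 to 0.77).

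Of the 3 TEAD genes among the members, which encode the DNA-binding partners of YAP and TAZ, Tead4 gained most. Tead4 (chr6:128224288-128300823, minus strand) had 46.3 CPM at 0 h, 75.6 at 48 h, 94.4 at 72 h and 77.3 at 96 h. All 3 libraries after PHx were above the library at 0 h. The log2 ratios were 0.71 (0.63 to 0.79), 1.03 (0.93 to 1.13) and 0.74 (0.61 to 0.87). At 48 and 72 h the covered length rose too, from 7964 to 14600 and 13108 bp, and the values per kb of peak were 5.81, 5.18 and 7.20 CPM. At 96 h the peaks covered 4550 bp. In hepatocyte-like nuclei alone the ratio at 72 h was 1.04. It was under 2-fold without the 5% of nuclei with the most counts (0.99), without the cluster led by Cdx2 (0.97), in peaks of near-equal length alone (0.79), with counts binarised (0.75) and per kb of peak (0.31). Promoter peaks of the gene held 34.9, 40.0, 35.8 and 33.1 CPM. At 96 h these are the peak over the gene start alone, as the peaks at a second start inside the gene no longer reached within 1000 bp of it, and most of that second region was left out at 72 h too. Over the same merged promoter regions in every library the values were 34.9, 40.0, 47.4 and 48.2 CPM, higher than at 0 h by log2 ratios of 0.20, 0.44 and 0.47. Neither measure was past 2-fold at any time.

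The start region of Tead4 and the second one inside the gene differed. The region over the gene start (chr6:128299335-128301414), which holds the Tead4 sequence printed above, had 16.6, 23.4, 32.5 and 33.1 CPM, with log2 ratios of 0.50 (0.36 to 0.63), 0.97 (0.80 to 1.13) and 0.99 (0.79 to 1.19). Its peak was 1973, 2046, 1960 and 1257 bp long, so the gain at 48 and 72 h was measured over nearly the same DNA. The region at an internal start 24 kb downstream (chr6:128274921-128278487) had 18.3, 16.6, 14.9 and 15.1 CPM. Regions away from starts, mostly intronic, summed to 11.4, 35.6, 47.0 and 29.1 CPM over 5, 18, 13 and 4 regions. The strongest of these lay at the far end of the gene (chr6:128224647-128226620, overlapping an exon), with 0.48, 10.2, 13.1 and 10.7 CPM and peaks of 272, 1974, 1787 and 811 bp.

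**Figure D2:**
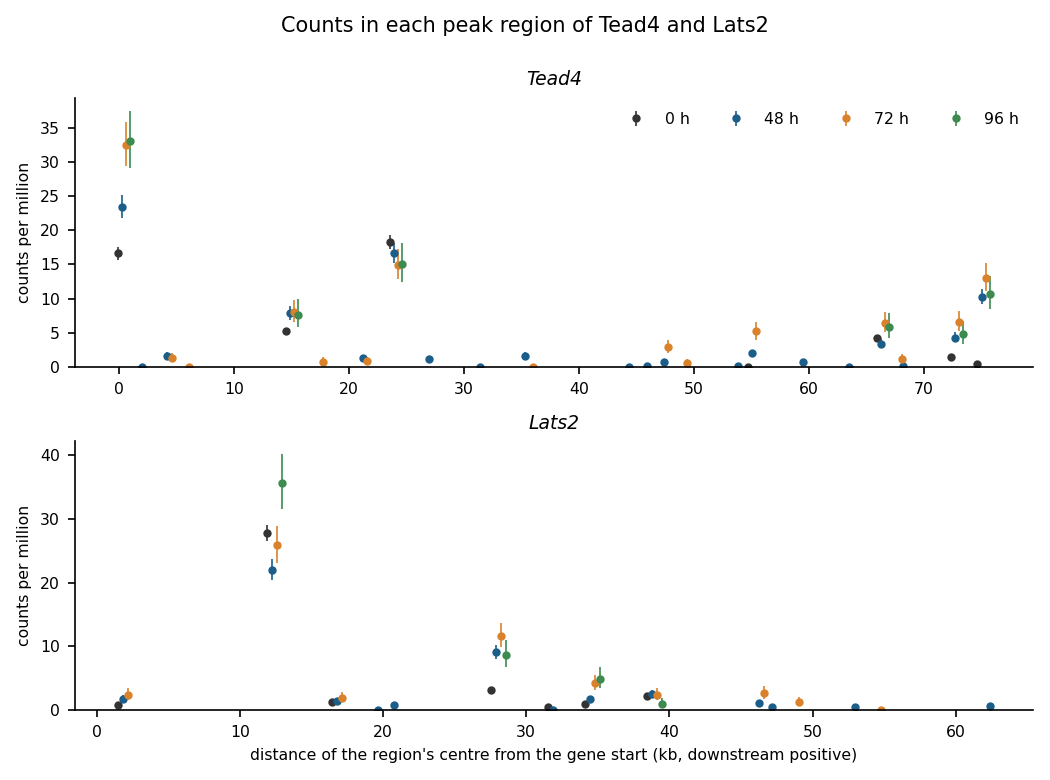
CPM (y) in each merged peak region of Tead4 (top) and Lats2 (bottom) by the distance of the region's centre from the annotated gene start (x, kb). Colours are the 4 libraries, drawn side by side with a small offset, bars are exact 95% Poisson intervals, and a region with no peak in a library has no point for it. The Tead4 start region is at 16.6 CPM at 0 h and 33.1 at 96 h, and the Lats2 intronic region 28 kb downstream at 3.15 CPM at 0 h and 11.7 at 72 h.

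Tead1 (chr7:112679318-112906807, plus strand), the TEAD gene with the most counts here, had 157, 171, 191 and 143 CPM over 26286, 32913, 29839 and 10402 bp. Its level was highest at 72 h, with a log2 ratio of 0.29 (0.23 to 0.35), and lowest at 96 h. The ratio at 72 h was 0.16 in hepatocyte-like nuclei without the cluster led by Cdx2, 0.05 with counts binarised and -0.02 in peaks of near-equal length alone. Its promoter peaks held 34.3, 35.3, 44.1 and 40.8 CPM. Of its 50 regions, 13 had a peak at 72 h alone and 8 at 48 h alone, beside 18.4% and 17% of all regions in the genome. The intronic region at chr7:112762893-112764471 went from 4.47 to 11.2, 11.7 and 10.4 CPM, with peaks of 987, 1579, 1314 and 687 bp. The intronic region whose sequence is printed above (chr7:112883869-112884440) had 2.54, 2.85, 6.51 and 7.43 CPM over peaks of 554, 525, 570 and 501 bp. A stronger intronic region, at chr7:112825309-112827099, had 20.7, 17.1, 17.9 and 16.9 CPM.

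Tead2 (chr7:45215753-45233644, plus strand) had the lowest counts of the members with peaks, at 8.04, 9.06, 8.86 and 9.24 CPM over 1996, 2333, 2297 and 772 bp. Its levels at neighbouring ranks did not differ beyond counting error. Promoter peaks had 4.68, 7.05, 6.92 and 5.83 CPM, a log2 ratio of 0.59 (0.34 to 0.84) at 48 h with promoter peaks 0.36 longer on the log2 scale. A peak shared with the neighbouring gene Dkkl1 gave 41.8%, 22.2%, 21.9% and 37.0% of the counts, so the value is not of Tead2 alone.

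Neither of the kinases that restrain YAP and TAZ was past 2-fold over the whole gene. Lats1 (chr10:7681214-7716460, plus strand) had 46.7, 44.9, 41.8 and 49.9 CPM over 5835, 6658, 3316 and 1765 bp. Its levels at neighbouring ranks did not differ beyond counting error, while that of 72 h was below that of 0 h (log2 ratio -0.16, -0.30 to -0.03). The direction at 72 h turned per kb of peak (0.66). It also turned in peaks of near-equal length alone (0.67), which rest on a region of Lats1 with under 20 counts. Its promoter peaks held 42.4, 38.7, 39.1 and 47.7 CPM. Between 86.1% and 100% of the counts over the whole gene lay in peaks that also overlap Pcmt1, the gene that starts beside it on the other strand, and the counts cannot be divided between the genes.

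Lats2 (chr14:57689662-57758388, minus strand), a kinase that is also a YAP target, had 36.9, 42.3, 52.5 and 50.3 CPM over 6641, 8454, 7823 and 2585 bp. The 3 libraries after PHx lay above 0 h, with log2 ratios of 0.20 (0.10 to 0.29), 0.51 (0.38 to 0.64) and 0.45 (0.29 to 0.60), none past 2-fold. The direction turned at 48 h per kb of peak (-0.15), and at 48 and 72 h in peaks of near-equal length alone (-0.10 and -0.02). The promoter peak held 27.8, 22.0, 25.9 and 35.7 CPM, lower than at 0 h at 48 h (log2 ratio -0.34, -0.47 to -0.21) and higher at 96 h (0.36, 0.17 to 0.54), while at 72 h the interval included 0. Regions away from the promoter summed to 9.05, 20.3, 26.6 and 14.6 CPM over 6, 12, 8 and 3 regions. The strongest intronic region (chr14:57729654-57731058) had 3.15, 9.08, 11.7 and 8.70 CPM with peaks of 869, 1271, 1304 and 516 bp. The intronic region printed above (chr14:57723569-57724006) had 1.05, 1.71, 4.21 and 4.95 CPM with peaks of 401, 431, 438 and 420 bp, so that its log2 ratios of 0.71 (0.17 to 1.24), 2.01 (1.46 to 2.54) and 2.24 (1.63 to 2.83) were measured over nearly the same DNA. Scaled to the counts in regions with peaks of near-equal length, these ratios were 0.83, 1.90 and 1.42. Nearly all counts of Lats2 (95.4% to 100%) lay in peaks that also overlap Gm49361, an annotated gene over the same locus.

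Nf2 (chr11:4765845-4849536, minus strand) encodes merlin, which brings the LATS kinases to the membrane and suppresses tumours. It had 56.2, 53.1, 48.6 and 40.1 CPM over 9858, 11744, 7643 and 2293 bp. The level at 96 h was lower than at 0 h by a log2 ratio of -0.49 (-0.66 to -0.32), with peaks covering less of the gene. Per kb of peak the direction turned (1.62), a measure by which 72.4% of all genes were past 2-fold at 96 h. In the promoter peak the values were 26.8, 19.8, 21.0 and 30.9 CPM, lowest at 48 h with a log2 ratio of -0.43 (-0.57 to -0.30) over peaks of 2081 and 2078 bp. A region at the far end of the gene (chr11:4765907-4769212) had 0.94, 8.42 and 5.66 CPM at 0, 48 and 72 h, with peaks of 431, 3118 and 1691 bp, and no peak at 96 h.

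Amotl2 (chr9:102716672-102733418, plus strand), an angiomotin family protein that binds YAP and a target of TEAD, was the member with most counts, 218, 179, 198 and 177 CPM. Per kb of peak at 0 h it was also the highest, at 9.31 CPM, followed by Lats1 at 8.0 and Wwtr1 at 7.11, with Yap1 at 4.16 and Tead2 at 4.03 the lowest. These values are of the peaks that touch the gene or the 2 kb upstream. The whole gene lay in a domain of open chromatin that ran past both of its ends (chr9:102713747-102739862). The peaks that touch the gene covered 23393 bp at 0 h, and a single peak of 26081 bp spanned the domain at 48 h. The whole domain held 3, 1, 6 and 9 peaks, of which 2, 1, 3 and 6 touched the gene or the 2 kb upstream. Summed over the whole domain, the values were 223, 179, 205 and 229 CPM, with a log2 ratio at 96 h of 0.04 (-0.03 to 0.11) in place of -0.30 for the peaks that touch the gene. With counts binarised the direction over the gene turned. The log2 ratios at 48, 72 and 96 h were then 0.02, 0.94 and 1.04 in place of -0.28, -0.14 and -0.30. Promoter peaks gave 218, 179, 148 and 78.1 CPM, and the promoter ratio at 96 h of -1.48 (-1.60 to -1.36), the only promoter value of a member past 2-fold, came with promoter peaks of 3207 bp in place of 23393 bp. Past 2-fold in promoter peaks were 10.5%, 18.9% and 17.7% of all genes at 48, 72 and 96 h.

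Ankrd1 (chr19:36111961-36120099, minus strand), a classical YAP target, had no peak in any of the 4 libraries over its body or the 2 kb upstream. The deposited tables hold counts in peaks only, so its level is unknown rather than 0, and no fold was computed. Both TEAD letter matches printed above thus lay in DNA where no peak was called.

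**Figure D3:**
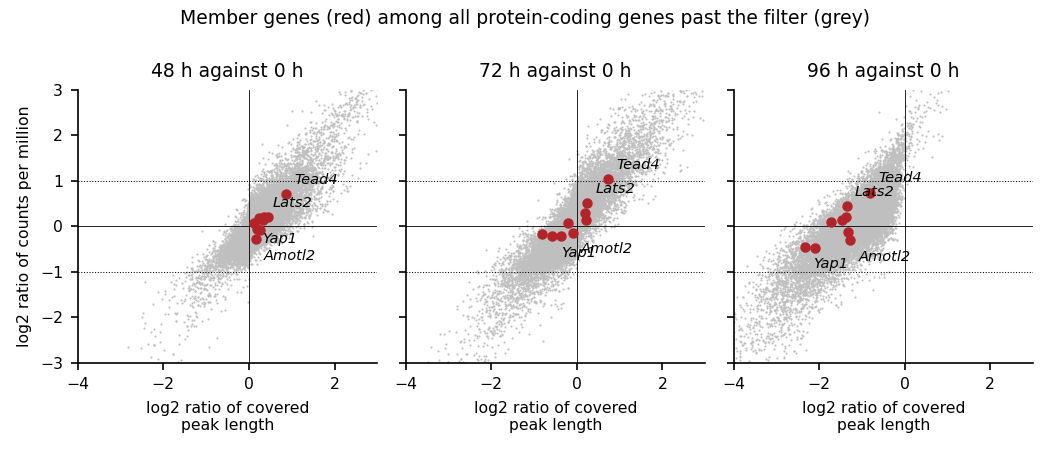
Log2 ratio to 0 h of CPM (y) against that of covered peak length (x) at 48, 72 and 96 h, for all protein-coding genes past the filter (grey) and the 9 members with peaks (red). Dotted lines mark 2-fold, and genes outside the axes are not drawn. Tead4 lies at a count ratio of 1.03 and a length ratio of 0.72 at 72 h, and at 96 h all 9 members have shorter covered length than at 0 h.

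Covered length moved in the same direction as most of these values at 48 and 72 h. At 96 h it was shorter for all 9 members, while 5 of them had higher counts than at 0 h. The median log2 ratio of covered length over the 9 members was 0.25, -0.10 and -1.37 at 48, 72 and 96 h, beside 0.16, -0.13 and -1.09 over all genes. Of 176 regions over the members, 50 had a peak in all 4 libraries, 43 at 48 h alone, 24 at 72 h alone, 4 at 0 h alone and none at 96 h alone. Over all 200890 regions of the genome these shares were 31.9%, 17%, 18.4%, 4.26% and 0.00597%. Most regions lay in introns (133), and 24 overlapped exons and 17 promoters. Regions called in a single library were therefore mostly those of 48 and 72 h, the libraries with the most peaks.

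To compare counts over peaks of like length, regions with exactly 1 peak in both libraries, peak lengths that differed by at most 25% and at least 20 counts in each were taken, with counts scaled to the sum over such regions. Overlap of the 2 peaks was not required, since regions were merged over all 4 libraries. The members had 52 at 48 h, 33 at 72 h and 3 at 96 h. Past 2-fold were 0, 2 and 1 of them, all higher, beside 0.82%, 5.26% and 16.2% of such regions in the genome. The median log2 ratio was 0.26, 0.12 and 0.98 over the members' regions and 0.12, 0.20 and 0.43 over all. The median of 0.98 at 96 h is that of a Tead4 region with peaks of 526 and 556 bp at 0 and 96 h. These lie in a merged region whose 72 h peak was 1230 bp long, so they need not share DNA. At 72 h the regions past 2-fold were the printed introns of Lats2, at a log2 ratio of 1.90 (1.35 to 2.43), and Tead1, at 1.247 (0.85 to 1.64). They had 1.86 and 1.27 in hepatocyte-like nuclei alone. At 96 h the Lats2 intron was at 1.42 (0.81 to 2.01) and the Tead1 intron at 0.73 (0.26 to 1.17) on this scale. The Tead4 start region was at 0.86 (0.69 to 1.02) at 72 h, as was a weaker intronic region of Tead1 with a wider interval (0.24 to 1.45). The Yap1 promoter region was at -0.56 (-0.70 to -0.41).

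**Figure D4:**
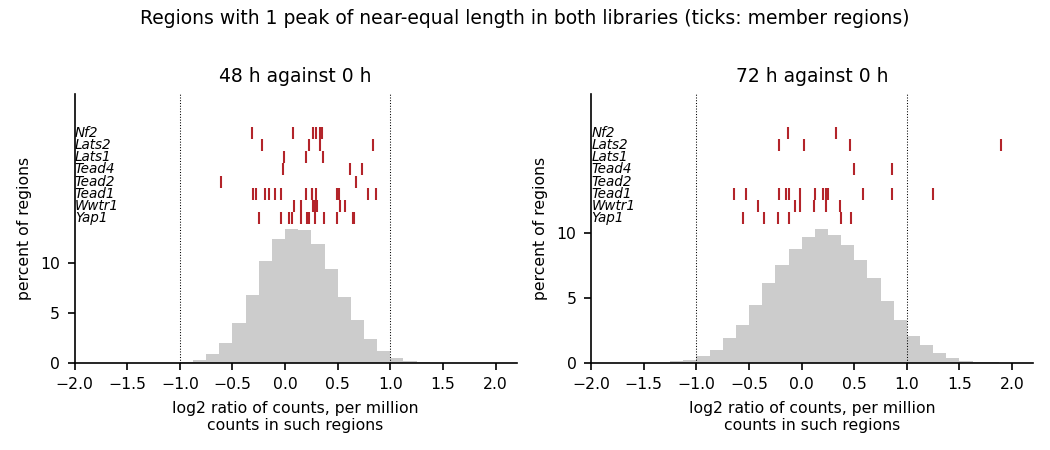
Log2 ratio to 0 h (x) in regions with 1 peak of near-equal length in both libraries, at 48 and 72 h. Grey bars give the percentage of all such regions in the genome in each bin (y), and red ticks, stacked by gene, are the single regions over members. Ticks past the dotted 2-fold line at 72 h are 1 region of Lats2 and 1 of Tead1.

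The rest of the pathway was read from 51 genes in lists of its parts, of which 47 passed the filter. Higher by 2-fold were 3, 11 and 4 of the 47 and lower 2, 3 and 2 at 48, 72 and 96 h, beside 7.58%, 12.8% and 7.14% higher and 1.9%, 6.05% and 8.62% lower over all genes. In the kinase core (Stk3, Stk4, Sav1, Mob1a, Mob1b, Lats1 and Lats2), 0 genes were past 2-fold at 48 and 96 h and 1 of 7 was lower at 72 h, Mob1b, an activator of the LATS kinases, with a log2 ratio of -1.08 and a length ratio of -1.14. Of the 7 coactivator, TEAD and Vgll4 genes, Tead4 alone was past 2-fold, at 72 h. Tead3 had 79.4, 82.1, 75.7 and 46.3 CPM. Of 17 upstream regulators with values, 1, 3 and 1 were higher and 1 at each time was lower.

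Of 19 known YAP and TEAD target genes with values, 3, 8 and 3 were higher by 2-fold and 1 was lower at 48, 72 and 96 h. Over all genes 7.58%, 12.8% and 7.14% were higher and 1.9%, 6.05% and 8.62% lower. The median log2 ratio of the targets was 0.30, 0.57 and 0.45, beside -0.02, 0.01 and 0.10 over all genes, with median length ratios of 0.22, 0.26 and -1.13. Summed markers of stellate and mesenchymal and of endothelial cells were highest at 72 h as well (values given with the other markers, beside the shares of nuclei in clusters that were not hepatocyte-like). A link with the targets was not tested. In hepatocyte-like nuclei alone, an alternative chosen after seeing the data, the median of the targets was 0.30, 0.59 and 0.47, with 3, 8 and 4 higher by 2-fold beside 7.71%, 12.9% and 7.25% of all genes. Without the cluster led by Cdx2 as well, 6 targets were higher at 72 h, beside 12.7% of all genes. Ccn2, a secreted matrix protein and a classical target, had 3.10, 8.65, 15.3 and 7.97 CPM over 834, 1802, 1744 and 633 bp. Its log2 ratios were 1.48, 2.30 and 1.36. Ccn1, a related target, had 137, 169, 204 and 273 CPM over 12879, 12938, 9365 and 5961 bp, so its counts were higher at each later time while its peaks were shorter at 72 and 96 h. Among the largest rises, Ptpn14, a phosphatase that holds YAP in the cytoplasm, had 10.4, 23.3, 70.7 and 18.8 CPM over 3487, 7331, 17575 and 2366 bp. Foxf2, a forkhead factor of mesenchymal cells, had 5.80, 20.0, 22.7 and 14.3 CPM over 1936, 6149, 4396 and 1153 bp. Fjx1 had 14.7, 26.1, 37.9 and 35.8 CPM over 3301, 4476, 4512 and 2534 bp.

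The lower target was Igfbp3, a binding protein for insulin-like growth factors, with 251, 13.9, 15.2 and 11.4 CPM and log2 ratios of -4.17, -4.05 and -4.45. Its promoter peaks had 0.66, 2.60 and 3.76 CPM at 0, 48 and 72 h, so the counts lost lay outside the promoter, and its covered length fell from 17517 to 3270, 2718 and 814 bp. Whole peaks that touch the gene or the 2 kb upstream are counted. How far those of 0 h ran past Igfbp3, or over a neighbouring gene, was not looked at, so the loss may not be of this gene alone. Of the other genes among the largest falls, Mob1b is given above and 3 are TAO kinases upstream of the cascade. Taok3 had 363, 177, 219 and 185 CPM, with covered length falling from 96300 to 38438 bp at 48 h. Taok2 had 66.8, 62.1, 25.0 and 20.8 CPM over 10999, 10680, 3875 and 846 bp, so at 72 and 96 h its covered length was lower by more than its counts. Taok1 had 30.5, 20.8, 18.2 and 23.8 CPM over 3738, 2953, 2361 and 1646 bp.

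Within a library, all nuclei are counted over the same peaks, so classes of nuclei can be compared without the difference in peak length. Over all genes the median ratio to hepatocyte-like nuclei was above 0, as given for each class, and the folds are not corrected for this. A cluster of 599 nuclei (206, 139, 199 and 55 at 0, 48, 72 and 96 h) had 8 of 9 detected endothelial markers at least 2-fold higher than the other clusters. It carries no cell type name here, since its nuclei had 0.220 of the median depth of their libraries and no fixed marker was among its 10 leading genes, which included Ehd3, Amotl1 and Clec14a. Wwtr1 was higher in it than in hepatocyte-like nuclei of the same library by 2.89-fold at 0 h, 2.50-fold at 48 h and 2.07-fold at 72 h, with log2 intervals of 1.19 to 1.85, 0.76 to 1.83 and 0.44 to 1.59. Tead2 was 3.82-fold and 4.40-fold higher at 0 and 48 h, from 24 and 12 counts. Lats2 was 2.01-fold and 2.86-fold higher at these times. Yap1 was at 1.03, 0.87 and 0.76 of the hepatocyte-like level, and the intervals of the difference included 0 at each of these times (log2 -0.33 to 0.40, -0.88 to 0.40 and -1.14 to 0.26).

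Past 2-fold higher in this cluster were 3, 4, 3 and 3 members at 0, 48, 72 and 96 h and none was lower, beside 21.1%, 21%, 15.4% and 32.7% of all genes higher and 13.7%, 12.7%, 11.4% and 9.35% lower. The median log2 ratio of the members was 0.36, 0.85, 0.50 and 0.91 at these times, beside 0.34, 0.29, 0.19 and 0.51 over all genes. At 96 h the cluster held 75007 counts in all, and of the 8 members with a value the interval was above 0 for Nf2 alone.

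A Kupffer and other myeloid-like cluster of 281 nuclei (90, 76, 88 and 27), with all 5 detected myeloid markers at least 2-fold higher and Clec4f among its 10 leading genes, had lower counts than hepatocyte-like nuclei at both coactivators and at Tead1 and Tead4 at 0 h, while at 72 h the intervals of Yap1, Wwtr1 and Tead4 included 0. At 0 h, Yap1 was at 0.35, Tead1 at 0.37, Tead4 at 0.36, Amotl2 at 0.37 and Wwtr1 at 0.48 of the hepatocyte-like level, while Lats2 was 2.11-fold and Nf2 2.09-fold higher. At 48 h Yap1 was at 0.25, Tead1 at 0.20 and Amotl2 at 0.22 of it, Lats2 was at 0.97 and Wwtr1 at 0.64, and the intervals of these last 2 included 0 on the log2 scale (-1.18 to 0.88 and -1.61 to 0.19). Lower by more than 2-fold were 5, 4, 1 and 1 members at the 4 times, beside 12.5%, 12.6%, 14% and 7.24% of all genes, and higher were 2, 1, 0 and 1, beside 20.1%, 17%, 18.6% and 40%. The median log2 ratio of members with a value was -1.06, -0.64, -0.51 and 0.13, beside 0.36, 0.23, 0.19 and 0.71 over all genes. At 96 h only 4 members had a value in this class. Values of all these ratios rest on counts summed over nuclei of 1 library and carry counting error only.

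**Figure D5:**
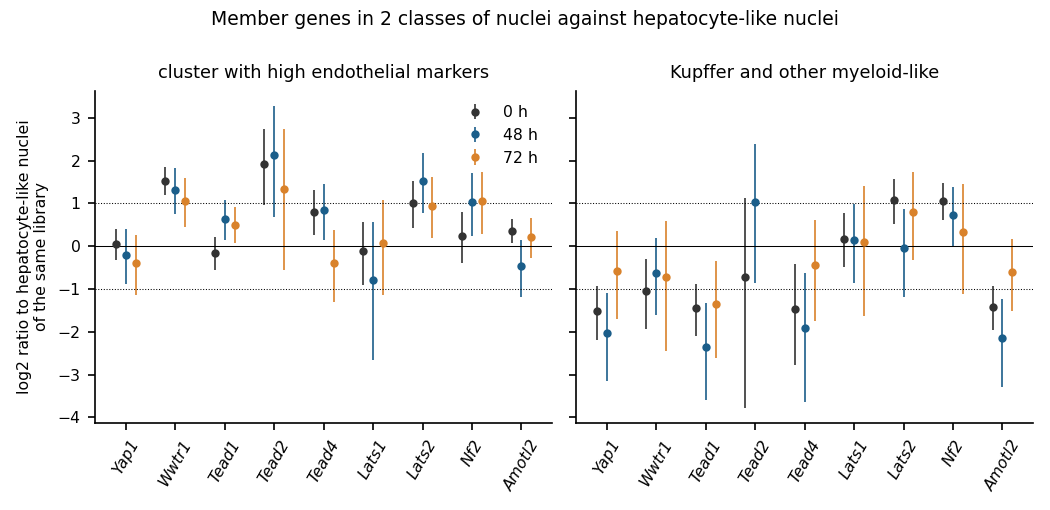
Log2 ratio of CPM to hepatocyte-like nuclei of the same library (y) for each member (x), in the unnamed cluster with high endothelial markers (left) and in Kupffer and other myeloid-like nuclei (right), at 0, 48 and 72 h. Bars are exact conditional 95% intervals of counting error, dotted lines mark 2-fold, and a member with 0 counts has no point. Wwtr1 lies above 2-fold on the left at all 3 times and below 0 on the right.

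Summed levels of markers of other cell types moved between the libraries. The 10 endothelial markers summed to 255, 266, 338 and 206 CPM, the 8 myeloid markers to 70.7, 137, 147 and 101 CPM and the 8 stellate and mesenchymal markers to 77.7, 127, 168 and 133 CPM, highest at 72 h as Tead4, Lats2 and the median of the targets were. At 0, 48, 72 and 96 h their peaks covered 52798, 63304, 64376 and 17129 bp (endothelial), 12747, 33321, 28345 and 6413 bp (myeloid) and 14200, 28050, 29138 and 8765 bp (stellate and mesenchymal). At these times the unnamed cluster with high endothelial markers held 5.18%, 3.57%, 4.68% and 1.71% of the nuclei. The myeloid-like cluster held 2.26%, 1.95%, 2.07% and 0.837%. A link between the marker sums and the member or target values was not tested. Of these markers, the myeloid genes Cd5l and Vsig4 had no peak in any library. The 8 cholangiocyte markers summed to 159, 132, 147 and 147 CPM and the 6 lymphoid markers to 16.6, 62.2, 17.8 and 12.7 CPM. Among them, Krt19 had no peak at 0, 48 and 96 h, and Nkg7 had none in any library. The ratios of Tead4 at 48, 72 and 96 h were 0.71, 1.04 and 0.74 in hepatocyte-like nuclei alone, and those of Lats2 were 0.20, 0.50 and 0.47. As these nuclei held nearly all counts of every library, the ratios could differ little from those of all nuclei. No cluster was classed as stellate, so any such nuclei were not set apart. The hepatocyte-like class was made up of different clusters in each library, so that at 96 h 3096 of its nuclei were in a cluster with 1 nucleus of 0 h. A hepatocyte-like cluster led by Cdx2, Pdx1 and Hox genes held 20.0% and 22.6% of the nuclei at 48 and 72 h and 0.0503% and 0.527% at 0 and 96 h. Without it the ratio of Tead4 at 72 h was 0.97, which is under 2-fold.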

How the data were processed

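The 4 scATAC-Seq libraries, 1 per time point, were analysed from the deposited matrices, which hold whole-number counts of transposase cuts per peak and barcode. Per the labels and the file headers, the authors ran Cell Ranger ATAC (version 1.1.0) with mm10, and peaks were called in each library on its own. The 2 ends of a fragment each add a count (even values, 87.3% to 88.6%), so exact 95% Poisson and conditional binomial intervals were computed on counts divided by 2. These cover counting error only. Every barcode with at least 1000 counts was kept, and no doublet caller was run.

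Counts were summed per gene, scaled to 1000000 counts in all peaks, and compared with 0 h where both libraries had a peak. A gene was called past 2-fold and read beside the same share over all protein-coding genes with a mean of at least 2 CPM. Peaks of the 4 libraries that touched were merged into 200890 regions. Nuclei were clustered on 62617 autosomal regions with a peak in every library, without those over the pathway genes (TF-IDF, 30 components, 30 neighbours, Leiden at resolution 0.5, scanpy 1.11.5), and classed by fixed lists of hepatocyte, endothelial, myeloid, stellate, cholangiocyte and lymphoid markers. Ratios and intervals were tried on counts simulated from the same Poisson model that the intervals assume. This checks the computation alone, as the simulation held no change of peaks and no variation between nuclei or animals. The text names all members, the 3 largest rises and falls of the wider lists at each time, and the 3 genes most like Yap1; single regions, and Tead3, Ccn1 and Taok1 at other times than those of the rule, were picked after their values were seen. The members and lists were chosen with earlier results of these data known.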

Additional observations from a re-analysis of the deposited data

How the results depend on the processing

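No paired analysis was possible because each time point has 1 library. The count of members past 2-fold at 48 h was 0 under every alternative. At 72 h it was 1 (Tead4), and 0 without the 5% of nuclei with the most counts (Tead4 at a log2 ratio of 0.99), with counts binarised (0.75), in promoter peaks (0.04), in near-equal-length peaks (0.79), per kb of called peak (0.31) and without the Cdx2-led cluster (0.97, an alternative chosen after seeing the data). At 96 h it was 0, and 1 with counts binarised (Amotl2 higher), 1 in promoter peaks (Amotl2 lower), 1 in near-equal-length peaks (Lats2 higher) and 8 per kb of peak, where 72.4% of all genes were past 2-fold. The median log2 ratio of the members at 48 h was 0.13, and 0.021 binarised, -0.13 in promoter peaks and -0.20 per kb. In near-equal-length peaks the values at 48 h ran from -0.13 (Nf2) to 0.38 (Tead4), with a median nearer to no change than 0.13. At 72 h the median was 0.08, and 0.27 per kb, -0.10 in promoter peaks, -0.03 binarised, -0.03 without the 5% of nuclei with the most counts and -0.02 in near-equal-length peaks (here with no minimum of counts per region). At 96 h it was 0.10, and 0.98 in near-equal-length peaks, 1.60 per kb and -0.04 for barcodes of at least 3000 counts. The cause was not tested, beyond the construction of each alternative, which changes the peaks or counts used. In the unnamed cluster at 96 h, 3 members were past 2-fold, and 5 in promoter peaks, beside 42% and 46.5% of all genes. The cluster gave no value at 72 and 96 h for barcodes of at least 3000 counts, as under 20 nuclei remained. Of 342 values of single members under the alternatives, 300 kept their sign and 42 did not. Nuclei held 136582768, 62000846, 24724883 and 14935507 counts at 0, 48, 72 and 96 h, over 119839, 158652, 164113 and 77580 peaks; the part of depth in the peaks called was not tested.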

Other observations

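In the wider lists, genes outside the rule for names were looked at after their values had been seen. Fat4, an atypical cadherin upstream of the cascade, had 27.5, 39.7, 49.2 and 61.1 CPM at 0, 48, 72 and 96 h over peaks of 5355, 5715, 5474 and 4620 bp, so that counts were higher at each later time while the covered length differed by less than for most genes at 96 h (log2 length ratio -0.21, beside a median of -1.09). Its binding partner Dchs1 had 16.4, 26.2, 35.0 and 28.4 CPM. The 8 targets past 2-fold at 72 h were Ccn2, Ptpn14, Foxf2, Fjx1, Crim1, Rbms3, Tgfb2 and Nt5e. Of these, Crim1, a membrane protein that binds growth factors, had 74.6, 142, 180 and 140 CPM, and Tgfb2, a growth factor, 31.8, 36.6, 66.3 and 54.3 CPM. With 1 library per time point these values have no replicate check.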
